A study of Mus musculus with 4 samples.

Results

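The calcineurin pathway was followed through 10 genes, which encode the subunits of calcineurin (Ppp3ca, Ppp3cb, Ppp3r1), its regulators (Rcan1, Rcan2, Cabin1) and the NFAT transcription factors it acts on (Nfatc1, Nfatc2, Nfatc3, Nfatc4). The probes of these genes were found as those assigned to a RefSeq or Ensembl transcript of one of them. All 10 had a probe, 14 probes in all, out of 55681 probes and 21654 genes that a probe could be tied to. Total RNA from the hearts of male C57BL/6J mice was measured on Agilent one-colour arrays of the mouse transcriptome. Mice underwent transverse aortic constriction (TAC), which narrows the aorta so that the left ventricle pumps against a raised pressure, or a sham operation. Hearts were taken at 2 weeks, read by the study as the phase of hypertrophy, and at 8 weeks, read as heart failure. The 4 groups, sham at 2 weeks, TAC at 2 weeks, sham at 8 weeks and TAC at 8 weeks, had 1 array each, loaded with RNA pooled from 4 to 6 mice. By the labels the mice were 10 weeks old at the early time and 16 weeks old at the late time, whereas the methods state surgery at 12 weeks. No genetic change or drug was used in any group. With 1 array per group there is no replicate check, so no p-value is given, and each difference is between pools of mice on 1 array each.

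Calcineurin is a phosphatase switched on by calcium and calmodulin. It strips phosphate groups from NFAT proteins, which then enter the nucleus and act on genes together with partners such as GATA4. In the heart muscle cell this route is known as a driver of hypertrophic growth. Rcan1 encodes a protein that binds and restrains calcineurin, and its shorter transcript is itself a known target of NFAT, so that its level is often used as a readout of the pathway. The activity of calcineurin and the location of NFAT are set after translation, and neither was measured here.

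Rcan1 has 2 promoters in RefSeq (GRCm38.p6, chromosome 16, minus strand), and they are shown because the probe of the gene is assigned to the transcript that starts at the downstream one. The transcripts NM_019466 (downstream start) and NM_001081549 (upstream start) begin 66091 bases apart, and the gene spans chr16:92391951-92466169. Each has 4 exons and they share 3 of them, which make up 91.7% of the bases of the first and 85.7% of those of the second. The probe's own sequence was not analysed here, so the assignment does not tell which start its RNA came from. The 250 bases before each start follow, 5′ to 3′ on the strand of the gene, with the core letters of the NFAT binding site in capitals (GGAAA, or TTTCC where it lies on the other strand).
Rcan1, downstream start, chr16:92400079-92400328: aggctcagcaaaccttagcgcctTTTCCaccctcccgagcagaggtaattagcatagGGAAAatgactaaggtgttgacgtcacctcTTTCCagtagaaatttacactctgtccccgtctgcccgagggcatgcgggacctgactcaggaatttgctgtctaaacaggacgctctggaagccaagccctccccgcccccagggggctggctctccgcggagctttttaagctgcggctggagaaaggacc
Rcan1, upstream start, chr16:92466170-92466419: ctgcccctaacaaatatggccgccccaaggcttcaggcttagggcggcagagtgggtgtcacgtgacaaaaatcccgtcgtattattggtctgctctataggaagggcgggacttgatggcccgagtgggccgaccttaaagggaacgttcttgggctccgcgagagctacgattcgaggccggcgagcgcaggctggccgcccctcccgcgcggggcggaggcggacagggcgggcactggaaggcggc
The downstream sequence held 3 matches, which began 227, 193 and 163 bases before the start, and the upstream sequence held 0. These 5 letters are common. Over windows that also hold the first 50 transcribed bases, 61.3% of the 32851 mouse promoters in the table had 1 match or more, and 9.42% had 3 or more. Of the members, 8 had promoters in the table, 13 in all (Ppp3ca and Nfatc1 had none there). Of these 13, 7 held 1 match or more and 4 held 3 or more, namely the downstream promoter of Rcan1, the more upstream of the 2 promoters of Nfatc2, the promoter of Nfatc4 and that of Ppp3cb, which held 4. A match is a stretch of letters and not a measured site of binding.

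Signals below are given in multiples of the 75th percentile of the probes on the same array, which makes a probe comparable between arrays but not with another probe. A difference is a difference of log2 signals, and a gene was called when it was well above background on both arrays and differed by more than 1.5-fold. Rcan1 was the member that was called, and it was higher after TAC at both times. The signal of its probe (A_52_P617327) was 3.42 in sham and 6.60 in TAC at 2 weeks, and 4.24 in sham and 13.96 in TAC at 8 weeks. Both TAC arrays thus lay above both sham arrays. The difference at 2 weeks was 0.95 on the log2 scale, or 1.93-fold, and at 8 weeks it was 1.72, or 3.29-fold. The sham arrays differed by 0.31, with the later one higher, and this is less than either TAC difference. Between the TAC arrays the signal was 2.11-fold higher at 8 weeks than at 2 weeks (log2 difference 1.08), a comparison in which 1 of 10 members and 2.84% of all genes were called higher. The TAC difference at 8 weeks exceeded that at 2 weeks by 0.77 on the log2 scale, or 1.70-fold, a value with no test. Repeated spots of the same probe, present for 399 probes with 10 spots each, gave log2 ratios between arrays with an SD of 0.0917 for probes above 0.25 times the 75th percentile, as this one is. That SD covers the scatter between spots of the same arrays only. It holds neither an error shared by a whole array nor the variation between mice.

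**Figure D1:**
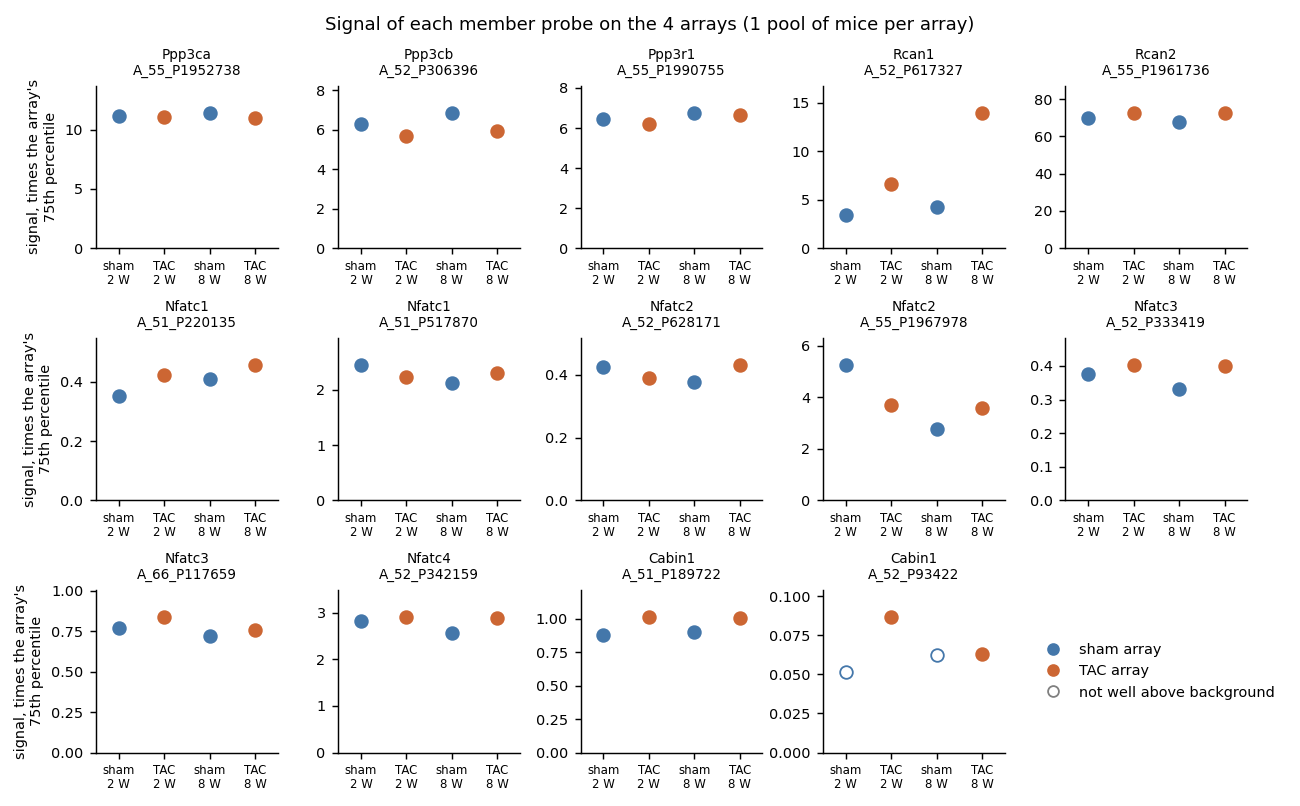
Signal of the 14 probes of the 10 genes (vertical axis, times the 75th percentile of the array, from 0, a separate scale in each panel) on the sham (blue) and TAC (orange) arrays at 2 and 8 weeks (2 W, 8 W). Each point is 1 array of pooled RNA, and open points are not well above background. Rcan1 goes from 3.42 and 4.24 on the sham arrays to 6.60 and 13.96 on the TAC arrays, while the panels of the calcineurin subunits are nearly flat.

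Among all genes measured, Rcan1 ranked 158th of 14415 by its difference at 2 weeks and 68th of 14577 at 8 weeks, counted from the highest. Of all genes, 4.17% were called higher and 2.55% lower at 2 weeks, and 5.36% were called higher and 3.99% lower at 8 weeks. Of the 10 members, 1 was called higher and 0 lower at each time. The median log2 difference of the 10 was 0.01 at 2 weeks and 0.11 at 8 weeks, beside -0.01 over all genes at both times. At a threshold of 2-fold, which 0.902% of genes passed upward at 2 weeks and 1.81% at 8 weeks, Rcan1 passed at 8 weeks and no member passed at 2 weeks.

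**Figure D2:**
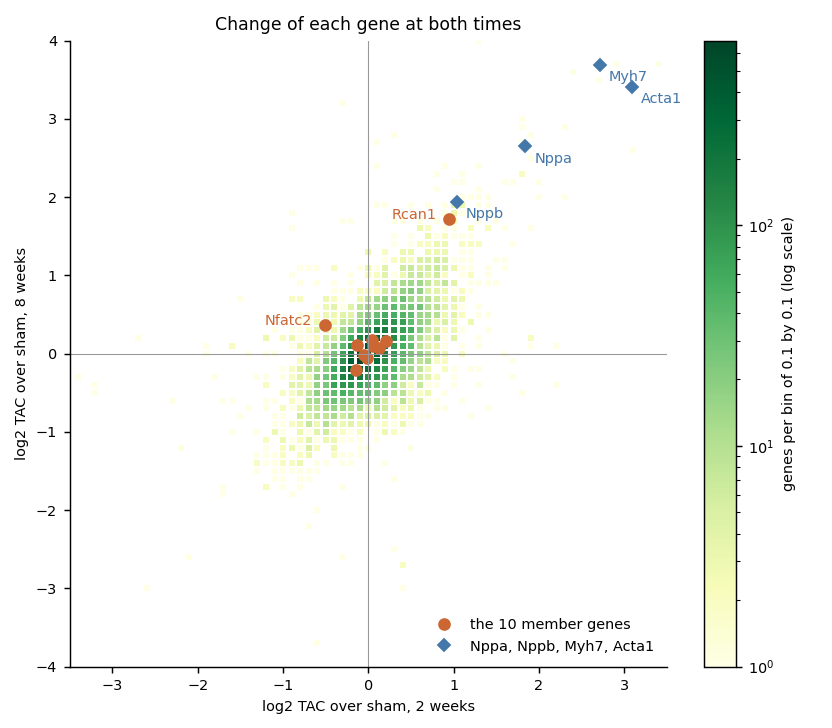
Log2 difference between TAC and sham at 2 weeks (horizontal axis) and 8 weeks (vertical axis), 1 probe per gene. Genes measured in both comparisons are counted in square bins (green, log scale). The 10 member genes are orange, and 4 known genes of cardiac stress are blue diamonds. Genes at -4.4 on either axis lie outside the frame. Rcan1, at 0.95 and 1.72, lies beside Nppb, and the other members lie near the centre, with Nfatc2 at -0.51 and 0.37.

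Rcan2 encodes a close relative of Rcan1 that also binds calcineurin. Its signal was 70.0 and 72.5 in sham and TAC at 2 weeks and 67.9 and 72.7 at 8 weeks. The TAC arrays were above the sham arrays, but by 0.05 and 0.10 on the log2 scale, beside the SD between spots of 0.0917. Cabin1 encodes a nuclear protein that binds and inhibits calcineurin and represses MEF2. Its brighter probe gave 0.879 and 1.01 in sham and TAC at 2 weeks and 0.900 and 1.01 at 8 weeks, log2 differences of 0.21 and 0.16, with the sham arrays 0.03 apart. Its other probe was well above background on the TAC arrays only. It gave 0.0517 and 0.0865 at 2 weeks and 0.0621 and 0.0628 at 8 weeks. Because the sham signals were dim, TAC was set against a floor on the sham array. The ratios were 1.44 at the early time and 1.01 at the late one, both under the 1.5-fold used for a call. The floor was the higher of the lowest signal well above background on the sham array and the probe's own signal there. It was the first at 2 weeks and the second at 8 weeks. The array software put this probe's signal error at 29.0% and 16.4% in sham and TAC at 2 weeks, and 22.4% and 20.0% at 8 weeks. Its direction at 8 weeks is thus not known.

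The subunits of calcineurin itself were nearly level. Ppp3ca, which encodes the alpha isoform of the catalytic subunit, had signals of 11.17, 11.04, 11.41 and 10.97 in sham at 2 weeks, TAC at 2 weeks, sham at 8 weeks and TAC at 8 weeks. Its whole range over the arrays was 0.06 on the log2 scale, less than the SD between spots. Ppp3cb encodes the beta isoform, whose loss is known to blunt hypertrophic growth in the mouse heart. Its signals, in the same order, were 6.28, 5.66, 6.86 and 5.95. Both TAC arrays were below both sham arrays, by 0.15 and 0.20 on the log2 scale, and the sham arrays differed by 0.13. Ppp3r1 encodes the regulatory subunit, calcineurin B, which binds calcium. It gave 6.44, 6.21, 6.76 and 6.66, and its TAC differences were -0.05 and -0.02.

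The NFAT genes encode the transcription factors that calcineurin activates, and none was called between TAC and sham by any probe. Nfatc4, one of the family members linked to cardiac hypertrophy, gave 2.81, 2.90, 2.56 and 2.89, log2 differences of 0.04 and 0.18. Both TAC arrays lay above both sham arrays, and the late sham array was the lowest of the 4. Nfatc3, also linked to it, has 2 probes. The brighter gave 0.772, 0.838, 0.724 and 0.759, log2 differences of 0.12 and 0.07. The dimmer gave 0.377, 0.403, 0.333 and 0.399, log2 differences of 0.09 and 0.26. On both probes the TAC array was above the sham array of its time. For the brighter one, however, the TAC array at 8 weeks lay below the sham array at 2 weeks.

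Nfatc1, best known for its part in heart valve formation and bone-resorbing cells, is read by a probe for each of 2 transcripts, and these disagreed at 2 weeks. The probe assigned to NM_198429 gave 2.45, 2.23, 2.13 and 2.31, log2 differences of -0.14 and 0.12. The probe assigned to NM_016791 gave 0.351, 0.424, 0.410 and 0.457, log2 differences of 0.27 and 0.15. The transcripts have 10 and 8 exons and share 6. The difference at 2 weeks thus had opposite signs on the probes, 0.41 apart, with an SD between spots of 0.0917 for probes above 0.25 times the 75th percentile.

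Nfatc2, first described in T lymphocytes, varied most among the NFAT genes, and it varied most between the sham arrays. The probe assigned to NM_001136073 gave 5.26 in sham and 3.69 in TAC at 2 weeks, and 2.77 in sham and 3.57 in TAC at 8 weeks. The TAC arrays lay between the sham arrays. TAC was therefore 1.42-fold lower at 2 weeks and 1.29-fold higher at 8 weeks, while the late sham array was 1.90-fold lower than the early one (log2 difference -0.93). This was the 45th lowest difference between the sham arrays among 14351 genes, of which 1.21% were called lower. Of the members, 1 of 10 was called lower there and 0 higher, where 1.62% of all genes were called higher. The probe assigned to NM_001037177 gave 0.426, 0.390, 0.378 and 0.431. Its differences had the same signs, -0.13 and 0.19 for TAC and -0.17 between the sham arrays, but were smaller. The transcripts have 11 and 7 exons, share 6, and begin at the same base. Among the markers of lymphocytes, 4 of 7 were well above background on all arrays and Cd3g and Cd8a on none, and their summed signal was 15.2 and 15.8 at 2 weeks and 15.5 and 13.9 at 8 weeks. Most of that sum came from Cd4 and Cd3e, at 9.17 and 5.65 in sham at 2 weeks. The part of lymphocytes in the differences of Nfatc2 was not tested.

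**Figure D3:**
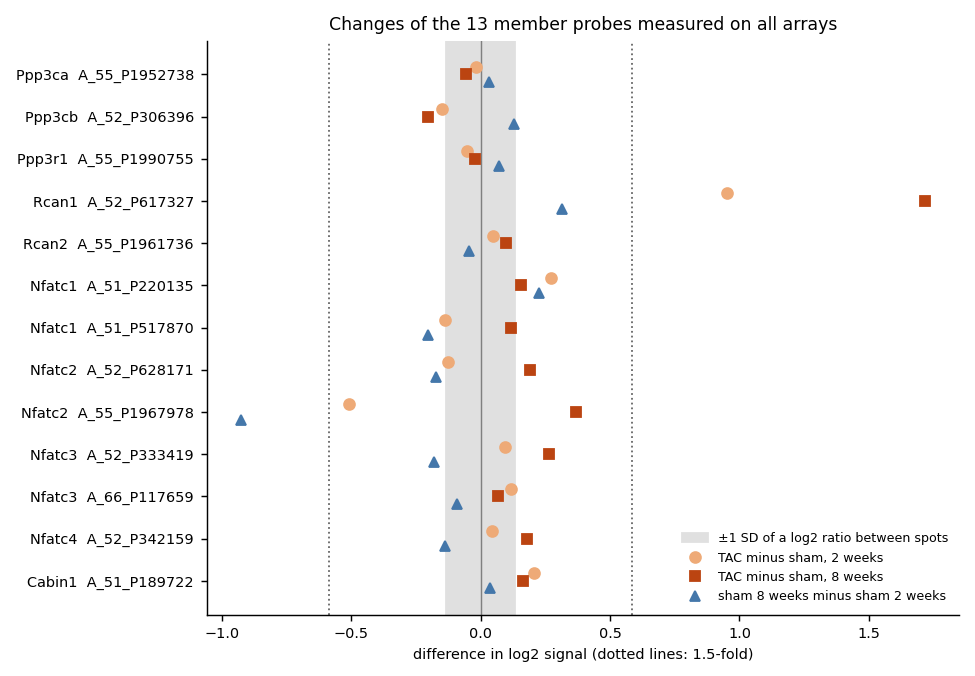
Differences in log2 signal (horizontal axis) of the 13 member probes that were well above background on all 4 arrays: TAC minus sham at 2 weeks (light circles), TAC minus sham at 8 weeks (dark squares) and the later sham array minus the earlier one (blue triangles). The grey band is 1 SD of log2 ratios between spots over all repeated probes (0.133) and dotted lines mark 1.5-fold. The TAC points of Rcan1, at 0.95 and 1.72, lie beyond the dotted line, and the sham point of the brighter Nfatc2 probe, at -0.93, lies beyond it on the other side.

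Leaving Rcan1 aside, the other 12 probes that were measured on all arrays had TAC differences from -0.51 to 0.27 at 2 weeks and from -0.20 to 0.37 at 8 weeks. Of these, 6 of 12 were above 0 at 2 weeks, beside 46.6% of all probes measured, and 9 of 12 at 8 weeks, beside 43.6%. The 12 include both probes of Nfatc1, Nfatc2 and Nfatc3, and the background includes probes not tied to a gene. Counted by gene, 4 of 9 were above 0 at 2 weeks and 6 of 9 at 8 weeks, beside 48.4% and 48.1% of all genes. In 7 of the 12 probes at 2 weeks and 5 of 12 at 8 weeks the TAC difference was smaller than the same probe's difference between the sham arrays. Both TAC arrays lay above both sham arrays for 6 of 13 probes, Rcan1 included, beside 19.9% of the 29262 probes measured on all arrays, and below both for 2 of 13, beside 26% of all. The 6 were those of Rcan1, Rcan2 and Nfatc4, the dimmer probes of Nfatc1 and Nfatc3, and the brighter probe of Cabin1, and the 2 were those of Ppp3ca and Ppp3cb.

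The rest of the pathway was read from a list of 49 further genes in 6 groups, of which 46 were measured in both comparisons. Ppp3r2, Trpc6 and Camk4 were not well above background on any array. No gene of the list was called at 2 weeks, beside 6.72% of all genes, and 1 was called at 8 weeks, beside 9.34%. The median log2 difference of the 46 was -0.05 at both times. The called gene was Trpc1, a calcium-permeable channel, which was lower in TAC at 8 weeks by 0.84 on the log2 scale. Its signals of 0.3015, 0.3114, 0.4999 and 0.2790 show that the late sham array stood above the other 3, by 0.73 over the early sham array.

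By role, the measured genes of calcium entry and calmodulin had a median log2 difference of 0.05 at 2 weeks and 0.08 at 8 weeks. In this group Stim1, the calcium sensor of the reticulum, had differences of 0.11 and 0.29. The 13 other binders, anchors and inhibitors had medians of 0.05 and 0.08. Csrp3, a protein of the Z-disc that binds calcineurin, had signals of 235.7, 314.2, 223.4 and 297.7, a log2 difference of 0.41 at each time. Cib1, which anchors calcineurin at the membrane of the muscle cell, gave 9.90, 12.81, 9.66 and 12.97, differences of 0.37 and 0.43. Both TAC arrays lay above both sham arrays for these genes, without reaching 1.5-fold. Myoz2, a Z-disc protein that restrains calcineurin, gave 0.08 and 0.19. Akap5, an anchor of calcineurin, lay at the threshold at 8 weeks, with a log2 difference of -0.58, and Chp2, a calcineurin B homologue, lay just under it at 1.48-fold higher.

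The 9 kinases that return phosphate to NFAT or compete with calcineurin for it had medians of -0.08 and -0.09, and 1 of 9 was above 0 at 2 weeks and 4 of 9 at 8 weeks, beside 48.4% and 48.1% of all genes. Mapk14, which encodes p38 alpha, gave 14.0, 10.8, 15.4 and 10.6, differences of -0.37 and -0.54, with both TAC arrays below both sham arrays. Mapk8, which encodes JNK1, gave 0.339, 0.256, 0.266 and 0.192, differences of -0.40 and -0.47. Gsk3b, a kinase that promotes the export of NFAT from the nucleus, differed by -0.06 and 0.07. The partners of NFAT and its calcium-independent relative, 5 genes, had medians of 0.01 and -0.08, and Gata4 differed by -0.21 and -0.05. In the parallel branch of CaMK and class II histone deacetylases, which acts on MEF2, 2 of 9 measured genes were above 0 at 2 weeks and 1 of 9 at 8 weeks, beside the same shares of all genes, with medians of -0.19 and -0.17. Camk2d, the main CaMKII gene of the heart, differed by -0.16 and -0.17.

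**Figure D4:**
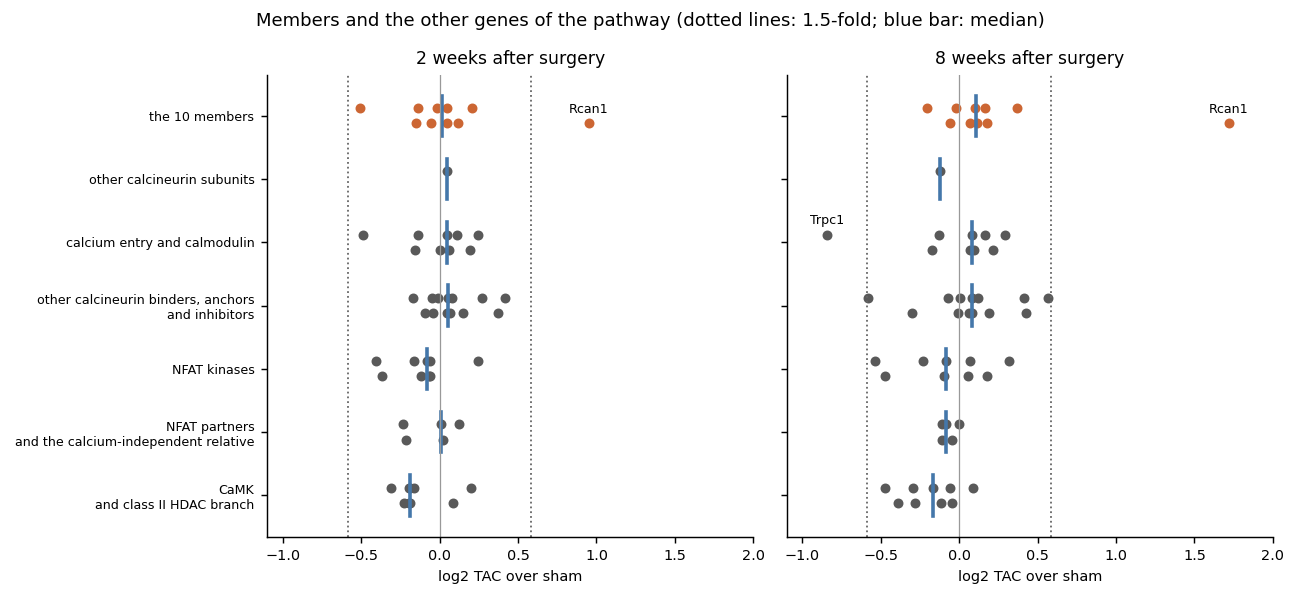
Log2 difference between TAC and sham (horizontal axis) at 2 weeks (left) and 8 weeks (right) for the 10 members (orange) and the measured genes of the 6 groups of the pathway list (grey, 1 point per gene). Blue bars are medians and dotted lines mark 1.5-fold. Rcan1 is the point beyond the dotted line on the right at both times, and Trpc1, at -0.84, is the one on the left at 8 weeks.

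The genes whose pattern over the 4 arrays was nearest to that of Rcan1 were sought among 14242 genes well above background on all of them, by the Euclidean distance between log2 signals centred on each gene's mean. The nearest 5 were Sphk1 (distance 0.103), Ube2c (0.107), Myot (0.145), Apod (0.157) and Nppb (0.172). Sphk1 encodes a sphingosine kinase, and its TAC differences were 0.93 and 1.82. Ube2c, a ubiquitin-conjugating enzyme of mitosis, had 0.96 and 1.59. Myot, which encodes the Z-disc protein myotilin, had 0.88 and 1.90, Apod, an apolipoprotein, 1.01 and 1.86, and Nppb, the natriuretic peptide BNP, 1.03 and 1.94. The late sham array was above the early one for all 5, by 0.14 to 0.33. Over only 4 arrays many genes can share a pattern, and the distances describe these arrays alone.

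**Figure D5:**
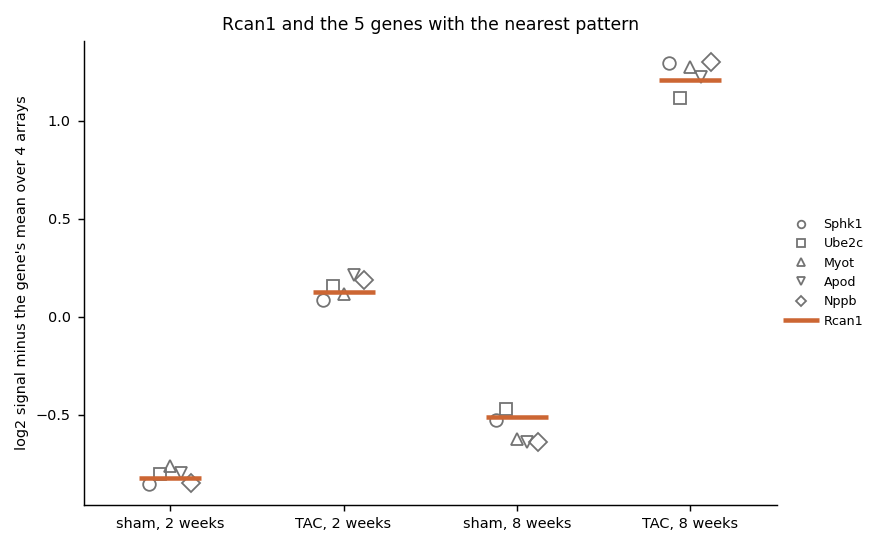
Log2 signal minus the gene's own mean over the arrays (vertical axis) on each of the 4 arrays (horizontal axis) for Rcan1 (orange bars) and the 5 genes nearest to it (grey symbols, shifted sideways for clarity). All 6 are lowest in sham at 2 weeks and highest in TAC at 8 weeks.

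The labels of the arrays were checked by genes known to respond to pressure load. Nppa, Nppb, Myh7 and Acta1 were higher in TAC at both times, by 1.03 to 3.09 on the log2 scale at 2 weeks and by 1.94 to 3.69 at 8 weeks. All 7 markers of heart muscle cells were well above background on every array. From 54.7% to 58.5% of probes were well above background, and no spot was saturated. The RNA came from whole tissue, in which fewer cells of a type and less RNA per cell cannot be told apart. Beside Rcan1, markers of fibroblasts were higher in TAC, 6 of 6 at 2 weeks and 5 of 6 at 8 weeks, where 48.4% and 48.1% of all genes were. At each time 3 were called (Col1a1, Col3a1 and Postn), where 4.17% and 5.36% of all genes were called higher. Dcn and Pdgfra were higher at both times without being called. Tcf21 differed by 0.07 at 2 weeks and was the exception at 8 weeks, at -0.55. The summed signal of the fibroblast markers was 165.8 in sham and 209.4 in TAC at 2 weeks and 189.2 and 253.7 at 8 weeks. A sum is weighted toward its brightest probe, here Dcn, at 142.5 in sham at 2 weeks. All 5 macrophage markers were above 0 at both times, with summed signals of 31.8 and 39.6 at 2 weeks and 32.5 and 41.1 at 8 weeks. The brightest of them, Csf1r, was at 27.0 in sham at 2 weeks. Of these, Cd163 was called higher at 2 weeks, by 0.66 on the log2 scale. Of the 3 smooth muscle markers, Cnn1 was called higher at 2 weeks, by 0.89, and differed by 0.48 at 8 weeks. Acta2 differed by -0.01 and -0.40, and Myh11 by 0.03 and 0.19. The summed signal of the 3 was 30.4 in sham and 31.7 in TAC at 2 weeks and 30.0 and 24.3 at 8 weeks. The summed signal of the 7 markers of heart muscle cells was 5268 in sham and 4820 in TAC at 2 weeks and 5053 and 4418 at 8 weeks. Of these markers, 2 of 7 were above 0 at 2 weeks (Actn2 and Myl2) and 1 of 7 at 8 weeks (Actn2), and Ryr2 was called lower at 8 weeks, with a log2 difference of -0.63. Of the 5 endothelial markers, 4 were above 0 at 2 weeks and 2 at 8 weeks, with median log2 differences of 0.19 and -0.06. The 2 erythroid markers measured had medians of -0.28 and 0.11, and no marker of these lists was called. The part of the shifts of any of these cell types in the difference of Rcan1 was not tested.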

How the data were processed

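Total RNA of mouse hearts was labelled with Cy3 and hybridised to 4 Agilent SurePrint G3 arrays, 1 per group. The authors deposited 1 scanner file per array, in which each spot has a processed signal intensity, corrected for background by Agilent Feature Extraction (version 10.7.3.1 per the file headers, 9.1 per the labels), and a flag for a signal well above background. The probes were designed on mm9 per the file headers. The authors also deposited a value table whose intensity is a constant multiple of the processed signal on each array, used as an alternative.

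From these, control and outlier spots were left out, spots of a probe were averaged, each array was divided by the 75th percentile of its probes and log2 was taken. Probes were named through their transcript by the RefSeq (GRCm38.p6) and GENCODE tables, and 29352 of 32342 transcript probes matched. A gene with several probes was given by the brightest. Genes named in the text are all members, each gene of the pathway list past 1.5-fold, the 4 genes of the label check and the 5 nearest to Rcan1, and other pathway and marker genes were picked as examples after their values were seen. The members and lists were chosen with earlier results of these data known. Calls were made by fold alone. The number of arrays limits the precision. The alternatives were another scaling (quantiles, the median, all spots, none), normexp, the value table, other filters on dim probes, outlier spots kept, the mean of a gene's probes, and thresholds of 2-fold and 1.25-fold. Work was done in Python 3.11.15, pandas 2.3.3, numpy 2.4.6 and limma 3.58.1 under R 4.3.3. Apart from the value table, normalised values of the study's own software were not used here, nor were probe sequences. The constant of that table differs between arrays, so it holds a scaling of its own. This scaling is close to the one used here, shifting the median of all probes by 0.03 at 2 weeks and -0.02 at 8 weeks. One gene of the pathway list is not reported here by name.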

Additional observations from a re-analysis of the deposited data

Results flagged for a closer look

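The brighter probe of Nfatc2 (A_55_P1967978) moved in opposite directions at the 2 times, lower in TAC at 2 weeks (log2 difference -0.51) and higher at 8 weeks (0.37). The differences lie 0.88 apart on the log2 scale. On this probe the late TAC array differed from the early one by -0.05, and the late sham array from the early one by -0.93. The gap of 0.88 is thus mostly the difference between the sham arrays. With 1 array per group it was not tested. The other Nfatc2 probe had the same signs at a smaller size, -0.13 and 0.19.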

How the results depend on the processing

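Of the alternatives, 10 were not thresholds. Under these, the log2 difference of Rcan1 stayed between 0.91 and 0.98 at 2 weeks and between 1.69 and 1.89 at 8 weeks. The filters on dim probes and the mean of a gene's probes could not change it, because its only probe passed them. The highest value was 1.89, at 8 weeks without normalization between arrays. That setting shifts the median of all probes by 0.17 at 8 weeks and raised the members' median there to 0.28. Of 234 values of single member probes under the alternatives, 15 moved by more than the SD between spots over all repeated probes (0.133). Of the 15, 13 moved without normalization and 2 under normexp. The 13 are the values at 8 weeks, which that setting shifts together by the same 0.17. Against the smaller SD of 0.0917 more values would count as moved. The 234 include values under the filters on dim probes, which cannot move a probe that passes them. The called values, those of Rcan1, kept their sign. Near 0 the sign did change. Ppp3ca ranged from -0.06 to 0.09 at 2 weeks and from -0.09 to 0.11 at 8 weeks. Ppp3r1 ranged from -0.05 to 0.15 at 8 weeks and Nfatc4 from -0.02 to 0.07 at 2 weeks. The members' median at 2 weeks ranged from -0.03 to 0.05. Leaving Rcan1 aside, the 12 probes well above background on all arrays stayed within 1.46-fold at both times under the alternative settings. The dimmer Cabin1 probe was not recomputed. At 2-fold 0 members were called at 2 weeks, and at the lowest threshold 2 were called at each time, Rcan1 and Nfatc2. Rcan1 was higher in TAC at both times, whereas Nfatc2 was lower at 2 weeks and higher at 8 weeks. The share of all genes past the lowest threshold was not computed. The counts there, also those of the pathway list, thus have no background beside them. For the pathway list, 5 genes were called at 2 weeks at the lowest threshold. At 8 weeks the count of 1 became 2 under quantiles, the median, the percentile over spots, the value table and the positive-and-significant filter, 3 without normalization, 0 under normexp and at 2-fold, and 9 at the lowest threshold. Trpc1 was among the genes called in each of these but normexp and the 2-fold threshold, and at the 1.5-fold threshold the added genes were Chp2, Akap5, Cib1 or Trpc6, the last of which was not well above background. No paired analysis was possible because each group has 1 array and the labels number no replicates, and no replicate could be left out.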
